A study of Rattus norvegicus with 13 samples.

Results

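Enzymes that make glutathione or remove superoxide and peroxides were followed in glomeruli of the rat kidney that had been isolated in 2 ways. The set held every probe set with exactly 1 gene symbol that was Gclc, Gclm, Gpx1, Gpx3, Gpx4, Sod1, Sod2, Cat, Prdx1 or Txnrd1. This rule found 11 probe sets of 9 genes, out of 15866 probe sets that are not controls and 10411 genes with a symbol of their own. Prdx1, a peroxiredoxin, shares its only probe set with a second symbol, so no value is given for it. All 11 probe sets lay above the filter on low values. The filter takes the mean over all arrays, so a probe set that is bright in a single group can pass it.

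RNA was hybridised to 13 one-colour Affymetrix Rat 230A arrays, with glomeruli, the capillary tufts that filter blood, as the source. The LCM20 group (n = 4) and the LCM800 group (n = 5) hold glomeruli that a laser cut out of frozen kidney sections (laser capture microdissection), and RNA of both went through 2 rounds of amplification. What separates these groups is given only by their titles, and what the title number 20 counts is not stated. The sieved group (n = 4, titled iron) holds glomeruli of the opposite kidney, which was perfused with iron oxide, after which they were collected by magnet and sieve and their RNA was used unamplified. All 3 groups came from untreated Lewis-Hsd rats aged 18 weeks, with no transgene or deleted gene in any group. The labels do not link replicate numbers to rats, and p-values measure the spread between these arrays.

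Glutathione is a tripeptide built in 2 steps. Glutamate cysteine ligase, made of a catalytic subunit (Gclc) and a modifier subunit (Gclm), carries out the limiting step, and glutathione synthetase (Gss) finishes the molecule. Superoxide dismutases turn superoxide into hydrogen peroxide, which catalase, glutathione peroxidases and peroxiredoxins break down, while thioredoxin reductase keeps thioredoxin reduced with NADPH. In the kidney the proximal tubule is rich in these enzymes and is the main source of the plasma peroxidase Gpx3. Several of the genes are known targets of Nrf2, a transcription factor that binds antioxidant response elements.

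To show where such an element may lie, promoters of the listed genes were searched for its core, TGACNNNGC, on both strands in RefSeq windows of build GRCr8 that run from 250 bases before to 50 bases after each gene's start. All 10 listed genes matched a window, and 4 of their 13 windows held the core, against 4038 of 33469 windows (12.1%) over all genes. The matches lay in Gclm, Sod2, Txnrd1 and Prdx1, and the match in Prdx1 also holds the overlapping AP-1 motif TGACTCA. The promoter stretches of the 3 measured genes with a match follow, 5′ to 3′ on the strand of the gene, with the core in capitals as it reads on that strand, which is the reverse complement of the motif in each.
Gclm, chr2:213031938-213031996, plus strand: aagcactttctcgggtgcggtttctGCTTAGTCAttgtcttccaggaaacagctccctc
Sod2, chr1:50050170-50050228, minus strand: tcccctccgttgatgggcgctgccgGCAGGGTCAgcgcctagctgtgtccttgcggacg
Txnrd1, chr7:22755949-22756007, minus strand: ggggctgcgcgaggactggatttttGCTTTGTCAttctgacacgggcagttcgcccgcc
The core ends 163 bases before the start of Gclm, 26 bases before that of Sod2 and 69 bases before a start of Txnrd1. Txnrd1 has another start, whose window, chr7:22764802-22765101, held 0 matches. A match in letters is a description and not a binding site. The window of Gclc held none, which says only that these letters are not in that stretch.

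Signals are MAS5 intensities on a linear scale, already scaled by the authors, with a median per array of 237 to 303 in LCM20, 271 to 321 in LCM800 and 261 to 269 in sieved. Changes are differences of mean log2(signal + 65.3), LCM minus sieved or LCM20 minus LCM800, given ± SE of the fit. The added 65.3, the 20th percentile of all signals, makes changes of dim probe sets smaller than the ratio of their signals. Adjusted p-values are two-sided, come from limma and cover all 11106 probe sets tested, with 0.05 as the threshold. Some arrays stood apart from their group. Sieved replicate 3 had the lowest mean correlation with its group, 0.886 against up to 0.946 for the other sieved arrays, over tested probe sets. LCM800 replicates 1 to 3 correlated at a mean of 0.909 among themselves and replicates 4 and 5 at 0.937, but these sets at 0.762 with each other, and no label gives a batch that separates them. Precision is limited by how few arrays each group has.

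Most of these enzymes were lower in laser-captured glomeruli than in sieved ones. In LCM20, 8 of the 11 probe sets were lower than in sieved, 0 were higher and 3 did not pass the test. In that comparison limma called 45.3% of all tested probe sets in either direction and 19.2% lower, and it called lower 22.6% of those with a mean signal of at least 1000 over all arrays. In LCM800, 9 of 11 were lower, 0 were higher and 2 did not pass, where limma called 51.9% of all tested probe sets in either direction, 20.1% lower, and, as lower, 26.2% of those with a mean signal of at least 1000. The median change over the 11 probe sets was -1.94 for LCM20 against sieved, beside 0.17 over all tested probe sets. For LCM800 against sieved it was -1.47, beside 0.22. The 2 comparisons share the sieved arrays. With each gene taken by its brightest probe set, 6 of 9 genes were lower in LCM20 and 7 of 9 in LCM800. The arrays did not overlap with the sieved arrays for 7 of 11 probe sets in LCM20, all lower, where 18.2% of all tested probe sets lay fully below sieved. They did not overlap for 7 of 11 in LCM800, all lower, where that share was 16.1%. In these bulk samples, fewer cells of a type and less RNA per cell cannot be told apart. The way of isolation and the amplification of RNA also differed between every LCM and every sieved array. Their effects cannot be told apart from differences in the tissue.

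**Figure D1:**
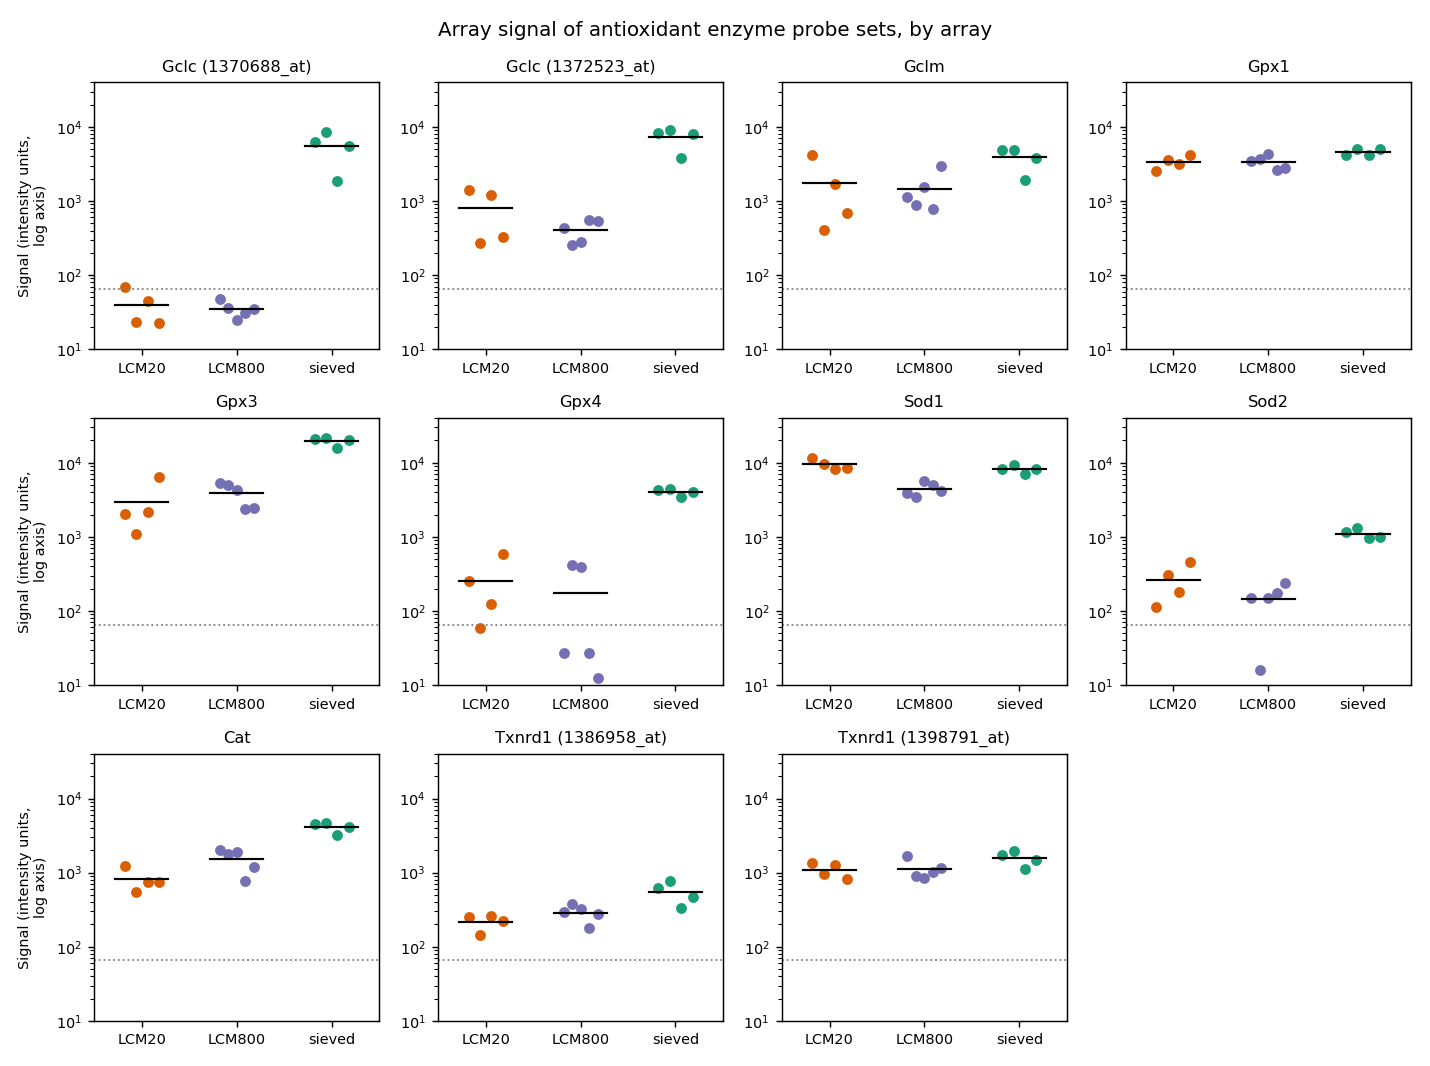
Signal of each antioxidant enzyme probe set (intensity units, log axis) on every array of the LCM20, LCM800 and sieved groups. Points are arrays, black lines are group means and the dotted line is the pseudocount of 65.3. Sieved arrays of Gclc, Gpx3, Gpx4 and Cat lie above every LCM array, while Gpx1 overlaps between groups and the LCM20 arrays of Sod1 reach the sieved level.

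Gclc, the catalytic subunit of the limiting enzyme of glutathione synthesis, was far lower in both LCM groups by each of its 2 probe sets. On 1372523_at its signal was 1406, 275, 1192 and 327 in LCM20 replicates 1 to 4. It was 436, 253, 279, 558 and 534 in LCM800 replicates 1 to 5, against 8210, 9194, 3754 and 7950 in sieved replicates 1 to 4. Every LCM array lay below every sieved array, LCM20 replicates 1 and 3 were the highest of the captured arrays, and sieved replicate 3 was the lowest of its group. The change was -3.30 ± 0.45 for LCM20 against sieved (limma adjusted p = 3.52e-05) and -3.92 ± 0.42 for LCM800 against sieved (adjusted p = 3.71e-06). The mean signal was 9.09-fold lower in LCM20 and 17.7-fold lower in LCM800.

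The other Gclc probe set, 1370688_at, read 69.7, 23.0, 45.1 and 22.5 in LCM20 and 47.0, 36.4, 24.8, 30.4 and 35.4 in LCM800. In sieved it read 6200, 8557, 1841 and 5502. Of the captured arrays, 3 of 4 in LCM20 and 5 of 5 in LCM800 lay under the pseudocount, and no detection calls were used here. Its mean over all arrays, on which the filter acts, was carried by the sieved arrays. Its change was -5.56 ± 0.34 in LCM20 (adjusted p = 5.07e-08) and -5.62 ± 0.33 in LCM800 (adjusted p = 2.53e-08). At this signal the size depends on the pseudocount: without one the change was -7.07 in LCM20 and -7.14 in LCM800, and with 4 times the pseudocount it was -4.09 in LCM20 and -4.11 in LCM800.

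Gclm, the modifier subunit that raises the activity of the ligase, was lower in both LCM groups, with a wide spread between captured arrays. Its signal was 4208, 409, 1711 and 685 in LCM20. It was 1126, 883, 1544, 777 and 2974 in LCM800, against 4956, 4897, 1936 and 3819 in sieved. The highest array of each LCM group lay above the lowest sieved array, and the highest LCM20 array was 10.3 times the lowest. The change was -1.54 ± 0.56 in LCM20 (adjusted p = 0.0354) and -1.46 ± 0.53 in LCM800 (adjusted p = 0.0318). Both calls rest on few arrays: leaving out sieved replicate 1, 2 or 4 ended each of them, with adjusted p between 0.0691 and 0.0879 in LCM20 and between 0.0647 and 0.0838 in LCM800. In LCM20 leaving out replicate 2 (-1.06, adjusted p = 0.129) or 4 (-1.28, adjusted p = 0.101) did so too, as did leaving out LCM800 replicate 1, 2 or 4 in LCM800 (adjusted p of 0.0550, 0.0666 and 0.0666). With LCM800 replicates 4 and 5 alone the change was -1.22 (adjusted p = 0.181).

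Among the glutathione peroxidases, Gpx3 and Gpx4 were lower in captured glomeruli and Gpx1 did not pass the test. Gpx3, the secreted peroxidase found in plasma, had signals of 2005, 1077, 2170 and 6441 in LCM20. In LCM800 they were 5252, 5062, 4266, 2386 and 2423, against 21135, 21760, 16072 and 20088 in sieved. No captured array came near the sieved range, and LCM20 replicate 4 and LCM800 replicates 1 to 3 were the highest of the captured ones. Its change was -3.02 ± 0.42 in LCM20 (adjusted p = 4.61e-05) and -2.40 ± 0.40 in LCM800 (adjusted p = 0.000155). In LCM800 it was -2.996 with replicates 4 and 5 alone and -2.01 with replicates 1 to 3 alone.

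Gpx4, the selenoprotein that reduces lipid peroxides in membranes, read 256, 58.1, 124 and 584 in LCM20. It read 27.1, 417, 387, 27.0 and 12.6 in LCM800, where 3 of 5 arrays lay under the pseudocount, against 4232, 4390, 3422 and 4056 in sieved. The sieved arrays lay within a narrow range (4025 ± 424, SD, n = 4), while the highest LCM800 array was 33.1 times the lowest. The change was -3.95 ± 0.59 in LCM20 (adjusted p = 8.46e-05) and -4.58 ± 0.56 in LCM800 (adjusted p = 1.06e-05). Its size depends on the pseudocount: it was -4.47 in LCM20 and -5.88 in LCM800 without one, and -3.15 in LCM20 and -3.42 in LCM800 with 4 times it. In LCM800 it was -5.59 with replicates 4 and 5 alone and -3.90 with replicates 1 to 3 alone.

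Gpx1, the peroxidase of cytosol and mitochondria, was present at 2547, 3630, 3180 and 4129 in LCM20 and at 3508, 3724, 4283, 2632 and 2767 in LCM800. In sieved it was 4162, 5018, 4118 and 4971. The highest array of each LCM group lay just above the lowest sieved array. The change was -0.45 ± 0.23 in LCM20 (adjusted p = 0.122, 95% interval -0.93 to 0.04) and -0.44 ± 0.22 in LCM800 (adjusted p = 0.0983, 95% interval -0.90 to 0.02). In LCM800 with replicates 4 and 5 alone it was -0.74 and passed the test (adjusted p = 0.0259).

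Of the 2 superoxide dismutases in the set, Sod2 was lower in both LCM groups and Sod1 was lower in LCM800. Sod1, the copper and zinc enzyme of the cytosol, read 11735, 9547, 8258 and 8398 in LCM20, and 3878, 3408, 5760, 5086 and 4203 in LCM800. In sieved it read 8147, 9346, 7082 and 8197. The LCM20 arrays overlapped with the sieved ones, while every LCM800 array lay below both other groups. Against sieved, the change was 0.20 ± 0.23 in LCM20 (adjusted p = 0.487, 95% interval -0.28 to 0.68), which missed the threshold, and Sod1 was lower in LCM800 (-0.88 ± 0.22, adjusted p = 0.00311).

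Sod2, the manganese enzyme of mitochondria, read 113, 306, 179 and 458 in LCM20 and 149, 16.1, 150, 173 and 240 in LCM800. In sieved it read 1178, 1302, 957 and 981, above all captured arrays. LCM800 replicate 2 was the only array of the 13 under the pseudocount for this probe set. The change was -1.94 ± 0.37 in LCM20 (adjusted p = 0.000623) and -2.58 ± 0.35 in LCM800 (adjusted p = 2.74e-05). It was -2.25 in LCM20 and -3.34 in LCM800 without a pseudocount, and -1.42 in LCM20 and -1.77 in LCM800 with 4 times it. Without LCM800 replicate 2 it was -2.27 in LCM800 and still passed.

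Cat, the peroxisomal catalase, was at 1230, 553, 748 and 738 in LCM20 and at 2001, 1763, 1912, 772 and 1185 in LCM800. In sieved it was at 4603, 4699, 3206 and 4171. The groups of captured arrays lay below sieved without overlap, and LCM800 replicates 1 to 3 lay above replicates 4 and 5. The change was -2.30 ± 0.30 in LCM20 (adjusted p = 2.86e-05) and -1.47 ± 0.29 in LCM800 (adjusted p = 0.000599). With LCM800 replicates 4 and 5 alone it was -2.03 and with replicates 1 to 3 alone -1.10.

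Txnrd1, the cytosolic thioredoxin reductase, has 2 probe sets that differ in their calls. On 1386958_at the signal was 254, 144, 259 and 220 in LCM20, and 292, 373, 325, 181 and 275 in LCM800. In sieved it was 613, 765, 335 and 465. Only LCM20 lay fully below the sieved arrays. The change was -1.07 ± 0.25 in LCM20 (adjusted p = 0.00290) and -0.76 ± 0.24 in LCM800 (adjusted p = 0.0148). The LCM800 call was lost when sieved replicate 2 was left out (adjusted p = 0.0669). It was also lost with LCM800 replicates 1 to 3 alone (adjusted p = 0.0670).

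On 1398791_at, Txnrd1 read 1331, 946, 1289 and 828 in LCM20 and 1655, 891, 853, 1027 and 1172 in LCM800. In sieved it read 1718, 1934, 1118 and 1499, which overlaps with both captured groups. The change of -0.49 ± 0.25 in LCM20 (adjusted p = 0.126, 95% interval -1.02 to 0.05) and that of -0.47 ± 0.24 in LCM800 (adjusted p = 0.108, 95% interval -0.98 to 0.03) missed the threshold. In LCM800 it passed without sieved replicate 3 (-0.62, adjusted p = 0.0483) and without LCM800 replicate 1 (-0.62, adjusted p = 0.0366).

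**Figure D2:**
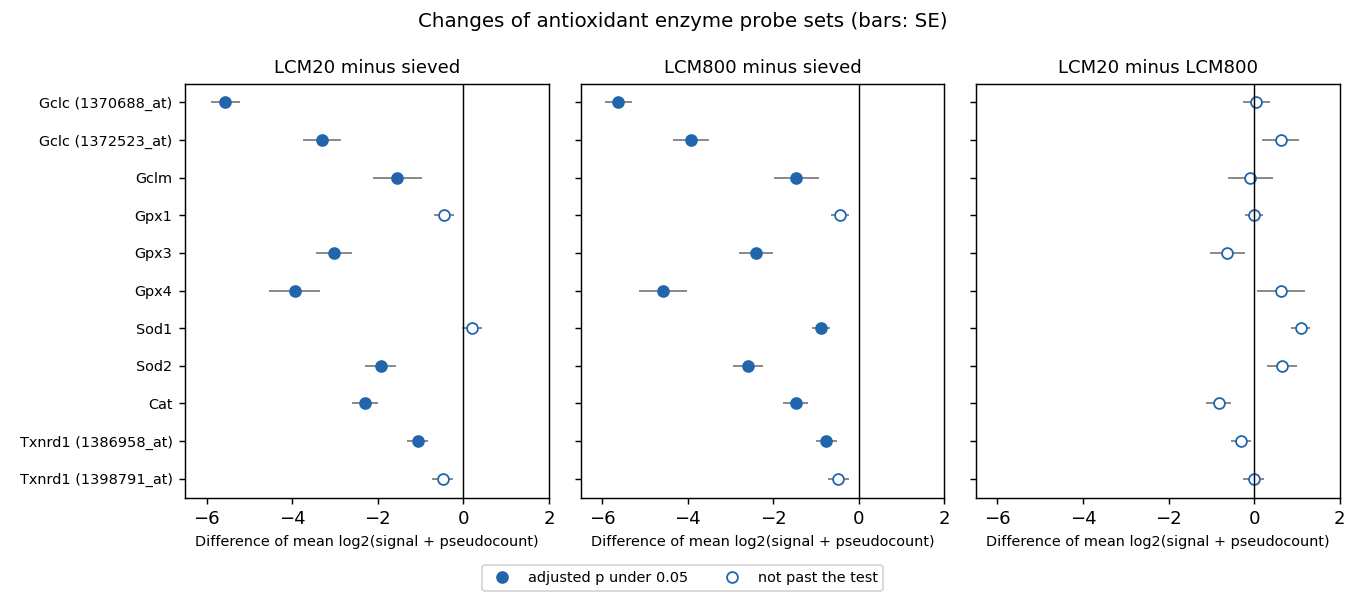
Difference of mean log2(signal + pseudocount) for each antioxidant enzyme probe set in LCM20 minus sieved, LCM800 minus sieved and LCM20 minus LCM800. Bars are SE, and filled points passed limma's adjusted p of 0.05. The 8 lower probe sets in LCM20 and the 9 in LCM800 run down to -5.56 and -5.62 for Gclc, and no point is filled between LCM20 and LCM800.

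Between the 2 captured groups, limma called 0 of the 11 probe sets, where it called 0.153% of all tested probe sets in either direction, 0.081% lower and 0.072% higher. At an unadjusted p under 0.05, 1 was lower (Cat) and 1 was higher (Sod1), where 17.6% of all tested probe sets had such a p. Sod1 averaged 9485 ± 1608 in LCM20 (SD, n = 4) and 4467 ± 948 in LCM800 (SD, n = 5), and was the only one of the 11 whose arrays did not overlap, with LCM20 above, as was the case for 1.6% of all tested probe sets. Its change was 1.09 ± 0.22 (adjusted p = 0.0623, 95% interval 0.63 to 1.54). Without LCM800 replicate 4 the change of Sod1 was 1.14 (adjusted p = 0.0226), without replicate 5 it was 1.07 (adjusted p = 0.0478), and without both it was 1.14 (adjusted p = 0.00375). With LCM800 replicates 4 and 5 alone the change of Sod1 was 1.01 (adjusted p = 0.127). Cat averaged 817 ± 289 in LCM20 and 1527 ± 528 in LCM800, a change of -0.83 ± 0.29 (adjusted p = 0.174, 95% interval -1.44 to -0.22). The change of Cat was -1.20 without LCM800 replicates 4 and 5 (adjusted p = 0.00353) and -1.04 without replicate 4 alone (adjusted p = 0.0395), but -0.27 with replicates 4 and 5 alone (adjusted p = 0.860). The remaining 9 probe sets changed by -0.62 for Gpx3 up to 0.65 for Sod2, with adjusted p of at least 0.349.

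The labelled tissue was checked by markers. Of 5 measured podocyte markers, 2 were higher and 1 lower in LCM20 than in sieved, and 2 were higher and 2 lower in LCM800. Beside all marker counts given here, limma called 26.2% of tested probe sets higher and 19.2% lower in LCM20. In LCM800 these shares were 31.8% and 20.1%. Nphs1, the slit protein nephrin, averaged 5274 in LCM20, 4725 in LCM800 and 2301 in sieved. Synpo, an actin-binding protein, averaged 18798 in LCM20, 20285 in LCM800 and 6417 in sieved. Podxl averaged 4528 in LCM20, 4126 in LCM800 and 7195 in sieved, and Ptpro averaged 2268 in LCM20, 1494 in LCM800 and 4207 in sieved, so members of this list stood on both sides. Wt1 averaged 1633 in LCM20, 1908 in LCM800 and 1528 in sieved. The 14 proximal tubule markers, such as Slc5a2, a glucose transporter, and Ggt1, moved in the same direction as most of these enzymes. Their summed signal was 9671 to 22114 in LCM20 (median 16189) and 13526 to 23180 in LCM800 (median 14607), against 58767 to 124547 in sieved (median 112077). All 14 of 14 were lower in LCM20 and all 14 in LCM800 by limma, and none was called between LCM20 and LCM800. Of these, Slc5a2 averaged 77.5 in LCM20, 136 in LCM800 and 2475 in sieved. The 7 markers of loop, distal tubule and collecting duct summed to 4200 to 11137 in LCM20 (median 7395) and 12293 to 19603 in LCM800 (median 15352), against 17049 to 37057 in sieved (median 32824). Of these 7, 0 were higher and 5 lower in LCM20, and 1 was higher and 4 lower in LCM800. Aqp2, the largest term of the LCM800 sum, averaged 3158 in LCM20, 9584 in LCM800 and 4278 in sieved. Umod averaged 1898 in LCM20, 2350 in LCM800 and 14085 in sieved. The podocyte markers summed to 25018 to 39888 in LCM20 and 28210 to 39378 in LCM800, against 15198 to 36231 in sieved, with Synpo the largest term in both LCM groups. The 6 measured glomerular endothelial markers summed to 18495 to 25436 in LCM20 and 12590 to 16000 in LCM800, against 4072 to 14975 in sieved, and 4 were higher in LCM20, 3 were higher in LCM800 and 0 were lower in either. Of 5 measured mesangial markers, 0 were called in LCM20 and 2 were higher in LCM800, and of 3 measured erythrocyte markers 1 was higher and 1 lower in each. Of 6 measured leukocyte markers, 3 were higher and 1 lower in LCM20, and 4 were higher and 1 lower in LCM800. Their sum was 5629 to 11770 in LCM20 and 6857 to 8885 in LCM800, against 7831 to 11892 in sieved, where Cd74 was its largest term, with a mean of 1598 in LCM20, 2276 in LCM800 and 7491 in sieved. The part of tubule RNA in the enzyme changes was not tested.

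The sieved group was not uniform in these markers. Sieved replicate 3 had the lowest summed proximal tubule signal, 58767 against at least 107181 in the other sieved arrays. It was the lowest sieved array for 11 of the 11 enzyme probe sets, and for 39.7% of all tested probe sets. Replicate 3 also had the highest summed podocyte signal, 36231 against at most 19914 in the other sieved arrays, and the highest summed endothelial signal, 14975 against at most 5614. Replicate 2 was the highest sieved array for 10 of 11 and had the highest summed tubule signal. The share of all tested probe sets with replicate 2 highest was not computed, so that count has nothing to be set beside. Without sieved replicate 3, 8 enzyme probe sets were lower in LCM20 and 10 in LCM800. Over all probe sets, limma then called 2116 lower in LCM20 and 2173 lower in LCM800. With all arrays these counts were 2127 in LCM20 and 2231 in LCM800, of 11106 tested.

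**Figure D3:**
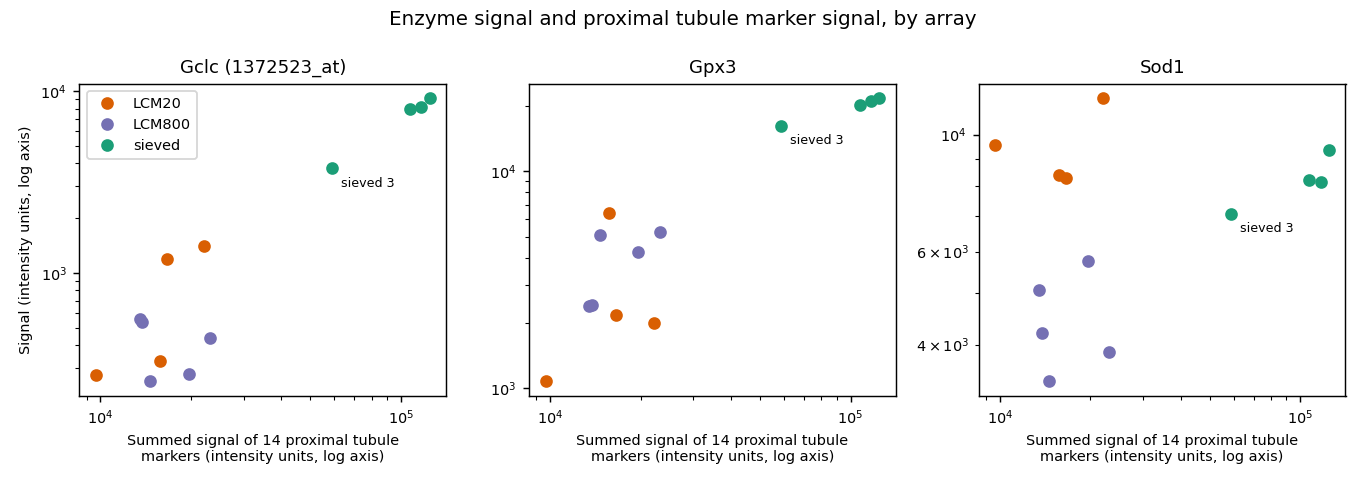
Signal of Gclc (1372523_at), Gpx3 and Sod1 on each array (intensity units, log axes) against the summed signal of 14 proximal tubule markers on the same array, with LCM20, LCM800 and sieved arrays in different colours. The sieved arrays of Gclc and Gpx3 lie at high values of both, with sieved replicate 3 nearest to the captured arrays, whereas Sod1 in LCM20 lies within or above the range of the sieved arrays with a summed marker signal of at most 22114.

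Control probe sets at the 3′ and 5′ ends of 2 messages were compared between the groups. For β-actin, the 3′ minus 5′ difference in log2 signal was 1.80 ± 0.45 in LCM20 (SD, n = 4) and 2.77 ± 1.03 in LCM800 (SD, n = 5), against 0.55 ± 0.02 in sieved (SD, n = 4). By exact two-sided permutation tests p was 0.0286 for LCM20, the smallest p that 4 against 4 arrays allow, and 0.0238 for LCM800, with 0.0381 for both after adjustment over 4 tests. For GAPDH it was 1.14 ± 1.38 in LCM20 (exact permutation p = 0.543) and 1.22 ± 0.49 in LCM800 (exact permutation p = 0.0159, adjusted p = 0.0381), against 0.52 ± 0.15 in sieved. The GAPDH call in LCM800 was lost without any 1 of the 4 sieved arrays (exact permutation p of 0.0536 to 0.0714), and without LCM20 replicate 2 the difference in LCM20 was 1.07 (exact permutation p = 0.0286). The part of 3′ bias in the enzyme changes was not tested.

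Across the 13 arrays, genes whose log2 values ran most like those of Gclc (1372523_at) were Slc22a25, an organic anion transporter family member (r = 0.993), Mep1a, a brush border protease (r = 0.991), and Epcam, an epithelial adhesion protein (r = 0.984). These are the 3 highest of 8034 genes compared by Pearson's r. Slc22a25 averaged 647 in LCM20, 490 in LCM800 and 5139 in sieved, and Mep1a averaged 986 in LCM20, 641 in LCM800 and 10073 in sieved. For Gpx3 the 3 highest were Cyc1, cytochrome c1 of the respiratory chain (r = 0.984), Rabac1, a Rab acceptor (r = 0.981), and Hadha, an enzyme of mitochondrial fat oxidation (r = 0.976). Cyc1 averaged 1178 in LCM20, 1446 in LCM800 and 4209 in sieved. The arrays share their group and their tubule signal, so these r values are descriptions.

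Of the other glutathione enzymes, 17 genes of the list were tested, each by its brightest probe set. In LCM20, 3 were higher and 7 lower than in sieved, with a median change of -0.10 beside 0.17 over all tested probe sets. In LCM800, 5 were higher and 8 lower, with a median of -0.12 beside 0.22. Over all tested probe sets, limma called 26.2% higher and 19.2% lower in LCM20, and 31.8% higher and 20.1% lower in LCM800. Ggt1, the brush border enzyme that begins the breakdown of extracellular glutathione, averaged 935 in LCM20 and 848 in LCM800, against 12671 in sieved. Its change was -3.88 ± 0.47 in LCM20 (adjusted p = 1.52e-05) and -3.92 ± 0.45 in LCM800 (adjusted p = 6.45e-06), and it is also 1 of the 14 tubule markers. Oplah, which opens the ring of oxoproline in glutathione turnover, was lower in LCM20 (-2.62 ± 0.49, adjusted p = 0.000564) and in LCM800 (-2.34 ± 0.47, adjusted p = 0.000749).

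Glrx2, a mitochondrial glutaredoxin, was higher in LCM800 (2.51 ± 0.20, adjusted p = 3.05e-07), with a mean signal of 3153 in LCM800 against 497 in sieved. In LCM20 the genes higher than in sieved were Glrx2 (2.59), Glrx, the cytosolic glutaredoxin (1.68), and Gpx8, a peroxidase of the endoplasmic reticulum (1.51). In LCM800 these were Glrx2, Gpx8 (1.65), Glrx (1.52), Chac1, which degrades glutathione in the cell (1.21), and Mgst2, a microsomal glutathione transferase (0.87). Gss, the second enzyme of glutathione synthesis, was lower in both (-1.84 ± 0.32, adjusted p = 0.000261 in LCM20, and -1.71 ± 0.30, adjusted p = 0.000245 in LCM800). Gss and the genes listed as higher, apart from Glrx2 in LCM800, were named after their values were seen.

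Among 18 other genes of the peroxiredoxin, thioredoxin and superoxide dismutase systems, 2 were higher and 9 lower in LCM20, with a median change of -0.79, beside 26.2% higher and 19.2% lower over all tested probe sets. In LCM800, 3 were higher and 10 lower, with a median of -0.73, beside 31.8% higher and 20.1% lower. Sod3, the secreted superoxide dismutase, averaged 431 in LCM20 and 788 in LCM800, against 8274 in sieved. Its change was -3.89 ± 0.47 in LCM20 (adjusted p = 1.41e-05) and -3.12 ± 0.45 in LCM800 (adjusted p = 4.23e-05). Msra, which repairs oxidised methionine, was lower in LCM20 (-1.83 ± 0.29, adjusted p = 0.000124) and in LCM800 (-2.06 ± 0.27, adjusted p = 2.17e-05). Msra averaged 88.7 in LCM20 and 64.8 in LCM800, near or under the pseudocount, against 478 in sieved. The size of its change therefore depends on the pseudocount. Selenop, a selenium carrier of plasma, was lower in LCM800 (-2.50 ± 0.43, adjusted p = 0.000229) and in LCM20 (-1.30 ± 0.46, adjusted p = 0.0298). The genes higher in LCM20 were Srxn1, sulfiredoxin (1.66, adjusted p = 0.00216), and Txn1, thioredoxin (0.98, adjusted p = 0.00603). In LCM800 they were Srxn1 (1.72, adjusted p = 0.000914), Txnrd3 (0.83, adjusted p = 0.00511) and Prdx2 (0.57, adjusted p = 0.0341), and these higher genes were named after their values were seen. Srxn1 averaged 325 in LCM20 and 308 in LCM800, against 45.6 in sieved, which is under the pseudocount, so the size of its change depends on the pseudocount.

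Of 15 Nrf2 regulators and targets, 5 were higher and 4 lower in LCM20, with a median change of -0.30, where limma called 26.2% of all tested probe sets higher and 19.2% lower. In LCM800, 3 were higher and 4 lower, with a median of -0.27, where it called 31.8% higher and 20.1% lower. Akr7a3, an aldehyde reductase, was lower in both (-2.78 ± 0.37, adjusted p = 2.83e-05 in LCM20, and -2.50 ± 0.35, adjusted p = 3.31e-05 in LCM800). Ephx1, the microsomal epoxide hydrolase, was lower in LCM20 (-2.38 ± 0.28, adjusted p = 1.05e-05) and in LCM800 (-1.78 ± 0.26, adjusted p = 5.86e-05). Osgin1, a stress-induced growth inhibitor, was lower in LCM800 (-1.86 ± 0.30, adjusted p = 0.000109) and in LCM20 (-1.87 ± 0.31, adjusted p = 0.000209). The members higher in LCM20 were Nqo1, a quinone reductase (1.06), Hmox1, heme oxygenase (0.72), Keap1, the inhibitor of Nrf2 (0.70), Cul3, the ligase subunit that binds Keap1 (0.70), and Abcc2, an export pump (0.65). In LCM800 they were Nqo1 (1.22), Hmox1 (1.02) and Keap1 (0.97), also named after their values were seen. Nqo1 averaged 961 in LCM20 and 1043 in LCM800, against 404 in sieved. Nfe2l2, which encodes Nrf2, changed by 0.10 in LCM20 (adjusted p = 0.867) and by -0.71 in LCM800 (adjusted p = 0.142) and did not pass the test.

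The NADPH that the reductases use comes from enzymes of which 10 were tested. In LCM20, 0 were higher and 3 lower (Aldh1l1, H6pd and Mthfd1), with a median change of -0.59, beside 26.2% higher and 19.2% lower over all tested probe sets. In LCM800, 1 was higher and 6 lower, with a median of -1.22, beside 31.8% higher and 20.1% lower. Aldh1l1, a folate enzyme that makes NADPH, averaged 273 in LCM20 and 357 in LCM800, against 2394 in sieved (-2.85 ± 0.31, adjusted p = 5.93e-06 in LCM20, and -2.58 ± 0.30, adjusted p = 6.28e-06 in LCM800). H6pd, which feeds the pentose phosphate route in the endoplasmic reticulum, was lower in LCM20 (-1.32 ± 0.31, adjusted p = 0.00280) and in LCM800 (-1.35 ± 0.29, adjusted p = 0.00134). Nnt, the transhydrogenase of mitochondria, was lower in LCM800 (-2.09 ± 0.37, adjusted p = 0.000289). Idh2, the mitochondrial isocitrate dehydrogenase, was the one gene higher in LCM800 (1.21 ± 0.27, adjusted p = 0.00190), and like Mthfd1, another folate enzyme, it was named after its values were seen.

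Between LCM20 and LCM800, limma called none of the 60 genes of these 4 lists, and 12 of them had an unadjusted p under 0.05, beside 17.6% of all tested probe sets.

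**Figure D4:**
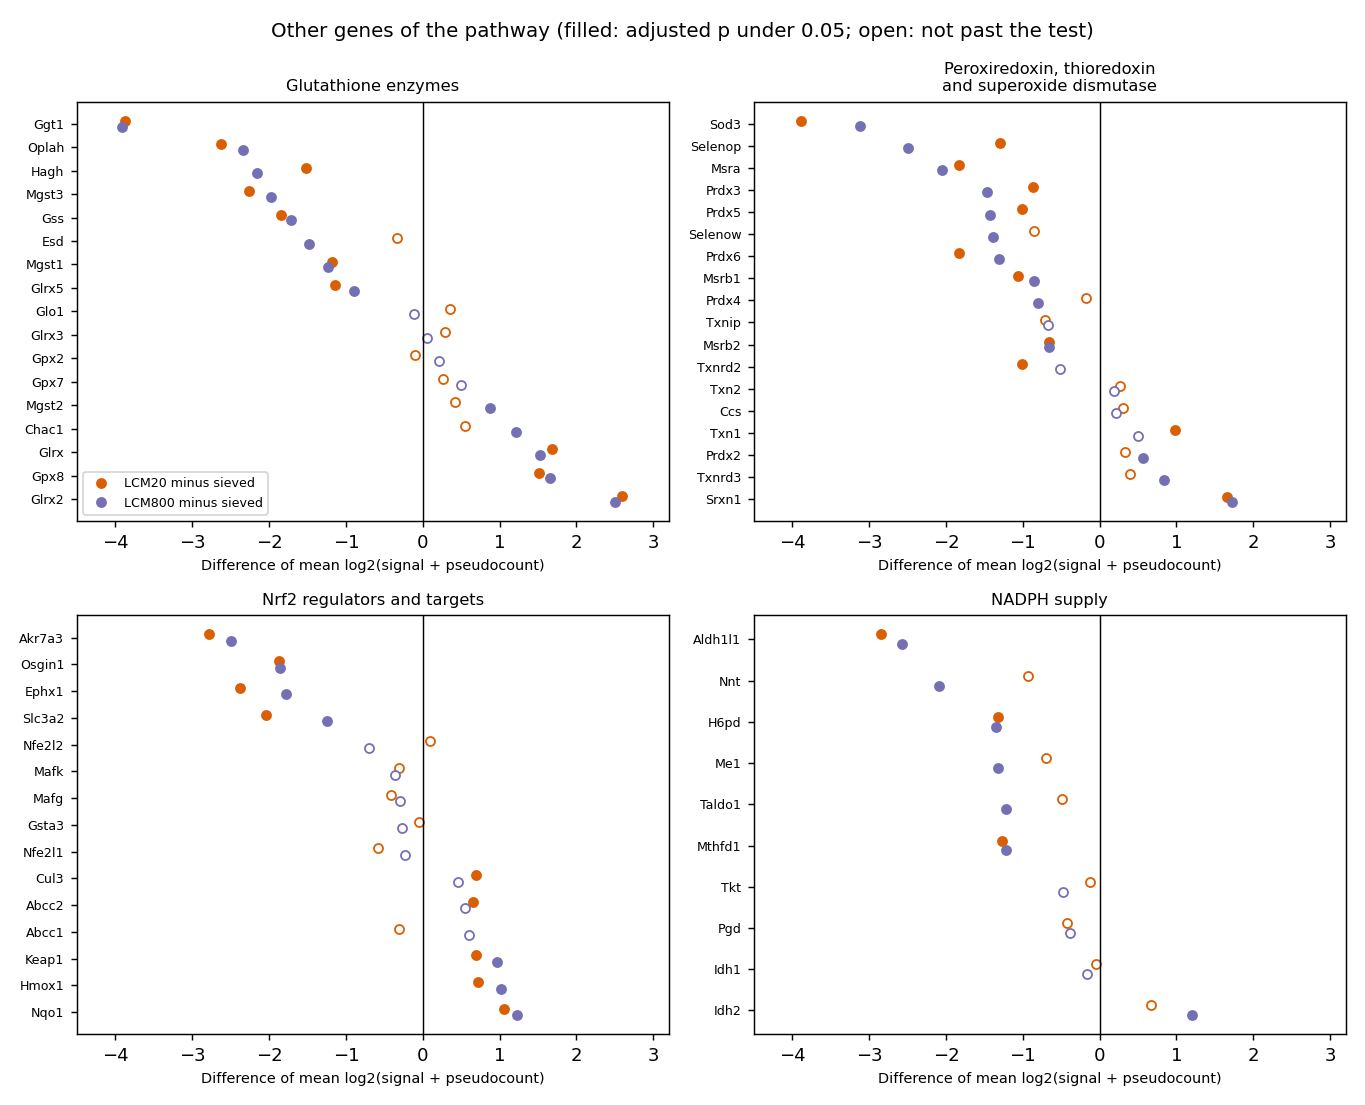
Difference of mean log2(signal + pseudocount) for other genes of the pathway in LCM20 minus sieved and LCM800 minus sieved, in 4 lists of 17, 18, 15 and 10 genes. Filled points passed limma's adjusted p of 0.05. Ggt1 (-3.88 in LCM20, -3.92 in LCM800) and Sod3 (-3.89 in LCM20, -3.12 in LCM800) lie at the low end and Glrx2 (2.59 in LCM20, 2.51 in LCM800) at the high end.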

How the data were processed

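The authors deposited linear array intensity values, for which the submitters' processing notes name MAS5, for 13 arrays and 15923 probe sets. With 2% of values at each end left out, every array had a mean of 500.1, so no further scaling was applied. Here the 57 control probe sets and the lowest 30% by mean log2(signal + 65.3) were left out, which left 11106. Symbols came from the platform annotation (12783 probe sets with 1 symbol, 312 with several, 2771 with none).

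The groups were compared in 1 fit by linear models in limma 3.58.1 (R 4.3.3), moderated with eBayes along an intensity trend, without covariates, and with Benjamini-Hochberg adjustment. On simulated LCM800 against sieved data, over 11106 probe sets, it recovered 55 of 100 changes of 1 log2 unit and 97 of 100 of 2 units, and called 5 unchanged ones. Far fewer probe sets changed there than limma called in the real comparison, and the simulated noise was independent between arrays. These rates may therefore not hold for the real arrays. All enzyme probe sets are named. In each pathway list, the 2 largest called changes per comparison are named, and for Gclc and Gpx3 the 3 genes most like each. The enzymes, lists and tests were chosen with earlier results of these data known. The protocol text also mentions anti-Thy1.1 rats and the description embryos, which does not match the other labels.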

Additional observations from a re-analysis of the deposited data

Results flagged for a closer look

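Single arrays lay far from the rest of their group in 2 of 33 combinations of enzyme probe set and group examined, by the gap to the nearest array as a share of the group's range. Chance gives about 1 in 20. For Gclc (1372523_at), sieved replicate 3 had a signal of 3754, while the other sieved arrays lay between 7950 and 9194, and this array also had the lowest summed proximal tubule signal of its group, 58767. For Sod2 (1370172_at), LCM800 replicate 2 had a signal of 16.07, under the pseudocount of 65.3, while the other LCM800 arrays lay between 149 and 240.2.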

How the results depend on the processing

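Direction and call of the 11 enzyme probe sets were kept in 187 of 195 alternative values for LCM20 against sieved, with 6 calls lost, 2 gained and 0 reversed. For LCM800 against sieved they were kept in 214 of 228 (9 lost, 5 gained, 0 reversed). For LCM20 against LCM800 the call alone was kept in 219 of 228 (0 lost, 9 gained, 0 calls reversed). Small changes there that did not pass could switch sign, as for Gclm, which ran from -0.66 to 0.39. Leaving out 1 array at a time gave 7 to 8 lower enzyme probe sets in LCM20 and 7 to 10 in LCM800. Over all probe sets it gave 4143 to 4957 calls in LCM20 against sieved, 4941 to 5723 in LCM800 against sieved and 0 to 502 in LCM20 against LCM800, where 17 were called with all arrays, 502 without LCM800 replicate 4 and 195 without replicate 5. In that comparison 0 to 1 enzyme probe sets were then lower and 0 to 1 higher.

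Under a filter that drops the lowest 60%, 3 enzyme probe sets were no longer tested, by construction. Of those still tested, 5 were lower in LCM20 and 6 in LCM800. Over all probe sets there were 3260 calls in LCM20 (1301 lower) and 3503 in LCM800 (1414 lower). Fewer probe sets were tested there than in the main fit, so these counts cannot be set directly beside those of the main fit. For LCM20 against LCM800, the count over all probe sets was 10 with no pseudocount, 10 with no filter, 859 with array weights, 2581 without LCM800 replicates 4 and 5, and 0 with only the 2 groups compared (1496 at an unadjusted p under 0.05). There 1 enzyme probe set, Sod1, was higher with the lowest 60% left out, with no intensity trend, with array weights and without LCM800 replicates 4 and 5, and 1, Cat, was lower with the last 2 of these. The causes were not tested.

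For Gclm in LCM20, quantile normalization gave -1.38 (adjusted p = 0.0561). Txnrd1 (1398791_at) passed with array weights in LCM20 (-0.62, adjusted p = 0.0168) and in LCM800 (-0.74, adjusted p = 0.00169), and with equal medians in LCM800 (-0.58, adjusted p = 0.0391). Gpx1 passed with array weights in LCM20 (-0.46, adjusted p = 0.0480).

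The GAPDH difference between LCM800 and sieved was 0.43 with 4 times the pseudocount (exact permutation p = 0.0635) and 0.50 to 0.84 with 1 array left out. Between LCM20 and sieved it was -0.0273 to 1.0665 with 1 array left out. Equal medians moved the median over all probe sets in LCM800 to 0.12, against 0.22, and no enzyme call was lost there.

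Arrays with the same replicate number did not deviate together (correlations of -0.244 to 0.233 in LCM20 against sieved, -0.145 to 0.167 in LCM800 against sieved and -0.216 to 0.145 in LCM20 against LCM800), and 1 of 4 matched its own number best in each. With the replicate number as a block, 8 enzyme probe sets were lower in LCM20 and 9 in LCM800, 0 were called between LCM20 and LCM800, and the count over all probe sets was 4874 in LCM20 against sieved, 5452 in LCM800 against sieved and 0 in LCM20 against LCM800 (2473 at an unadjusted p under 0.05). For signals near or under the pseudocount, the size of the change depends on the pseudocount. Such signals included those of Gclc (1370688_at), Gpx4, Sod2 and Msra in captured glomeruli and Srxn1 in sieved ones. The change of Txnrd1 (1386958_at) in LCM20 was -1.28 without a pseudocount and -0.72 with 4 times it. In LCM800 it was -0.89 without one and -0.53 with 4 times it. Background was not measured here.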
